A study of Rattus norvegicus with 12 samples.

Results

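The step from phase 2 to phase 3 of a prolonged fast was followed across the genes expressed in the epididymal fat pad, a visceral white fat depot of the rat. The comparison rests on the 4 rats labelled phase 3 and the 4 labelled phase 2, which are 8 of the series' 12 rats, and on 14506 genes. Each gene is represented by the brightest of its probe sets that carry a single gene symbol. All animals were male Sprague-Dawley rats, with no genetic change and no drug named in the labels, and the RNA of each rat was hybridised to 1 Affymetrix whole-transcript array. The remaining 4 rats were fed; their arrays entered the same fit and their values are given where they show what a gene did before phase 2. The length of the fasts and the ages and body masses of the rats are not given in the sources used here. Pieces of whole frozen fat pad were ground, so a value is an average over the cells of the pad.

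As background, a prolonged fast is commonly divided into a short phase of adaptation, a long phase 2 in which fat stores supply most of the energy and body protein is spared, and a phase 3 in which protein is broken down at a rising rate and plasma corticosterone climbs. White adipocytes store triglyceride in a large lipid droplet and release it as fatty acids and glycerol through the successive action of the lipases Pnpla2 (ATGL) and Lipe (HSL). Insulin restrains this release and catecholamines drive it. The muscle programme of protein wasting works through ubiquitin ligases such as Trim63 (MuRF1) and Fbxo32 (atrogin-1), the proteasome and autophagy, and is switched on by FOXO factors and glucocorticoids. The comparison asks what the fat tissue did as the rats passed from the fat-burning to the protein-wasting phase.

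Values are the deposited RMA signals on the log2 scale, where a difference of 1 is a doubling, and "change" means the phase 3 mean minus the phase 2 mean, with the standard error of a limma fit to all 12 arrays. A gene is said to have risen or fallen only where its Benjamini-Hochberg adjusted p over the 14506 genes was under 0.05. In phase 3 against phase 2, 1853 genes rose and 2193 fell, so that 27.9% of the genes passed the test, made up of 12.8% of all genes higher and 15.1% lower. Changes of at least 2-fold were held by 210 of the genes that rose and 312 of those that fell, and changes of at least 4-fold by 32 and 40. For 26.3% of the genes, whether or not they passed the test, the 4 phase 3 values and the 4 phase 2 values did not overlap (1794 higher, 2027 lower). The first step of the fast, phase 2 against fed, moved 25.2% of the genes in the same fit. The median change over all genes was 0.03, while the arrays' medians over these 14506 genes differed by a mean of -0.0901 (phase 3 minus phase 2, log2). Over all probe sets, named or not, the array medians overlapped, at 6.07 to 6.11 in phase 2 and 6.03 to 6.13 in phase 3. With each array centred on its own median over the genes the calls were 3115 higher and 1683 lower, so the share of calls that were higher was 45.8% as deposited and 64.9% after centring. Changes below about 0.3 are therefore read with that scaling in mind, and where it moved the count of a gene group by more than 1.5 times, both counts are given. The share of members that passed was near that of all genes (22.6% to 31.6%) for the interferon, cell cycle, hepatocyte, T and NK cell, B and plasma cell, sterol, thermogenic and skeletal muscle lists and for the chaperones of the endoplasmic reticulum. It was lower for the endothelial (18.8%), mast cell (18.2%), smooth muscle and pericyte (15.4%), epididymis and testis (6.67%), cytosolic ribosomal (1.54%) and lymphatic (0.0%) lists. The share of all genes includes dim genes, few of which passed. Of the genes that were not dim in both groups, by the gauge given below, 36.4% passed. The mitochondrial ribosomal (34.1%), complement (36.8%), NAD (37.5%), macrophage (38.1%) and inflammatory mediator (38.7%) lists were near that share. The lysosomal list lay a little above it. The counts of all these lists are given as a description of their members.

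The rats fell into separate groups, with more spread in phase 3. Along the first principal component of the 8 arrays, which held 60.5% of the variance, the phase 2 rats lay between -28.82 and -23.47 and the phase 3 rats at 17.55, 23.14, 32.43 and 29.33, so that phase 3 rat 1 was nearest to phase 2. Phase 3 rats 2 and 3 lay far apart on the second component (21.39 and -26.54, with 14.4% of the variance). The median standard deviation over genes was 0.167 in phase 3, 0.126 in phase 2 and 0.112 in the fed group. Without phase 3 rats 2 and 3, a setting added after their position was seen, 1640 genes rose and 1824 fell. The array gives no detection call in these files, so the 1105 olfactory receptor genes, which fat is not known to use, served as a gauge of dim signal. Their 95th percentile was 5.13. Where a group mean lies near or below that level, its fold is not interpreted. Of the genes with both group means below it, 3.51% passed the test, against 36.4% of the others.

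**Figure D1:**
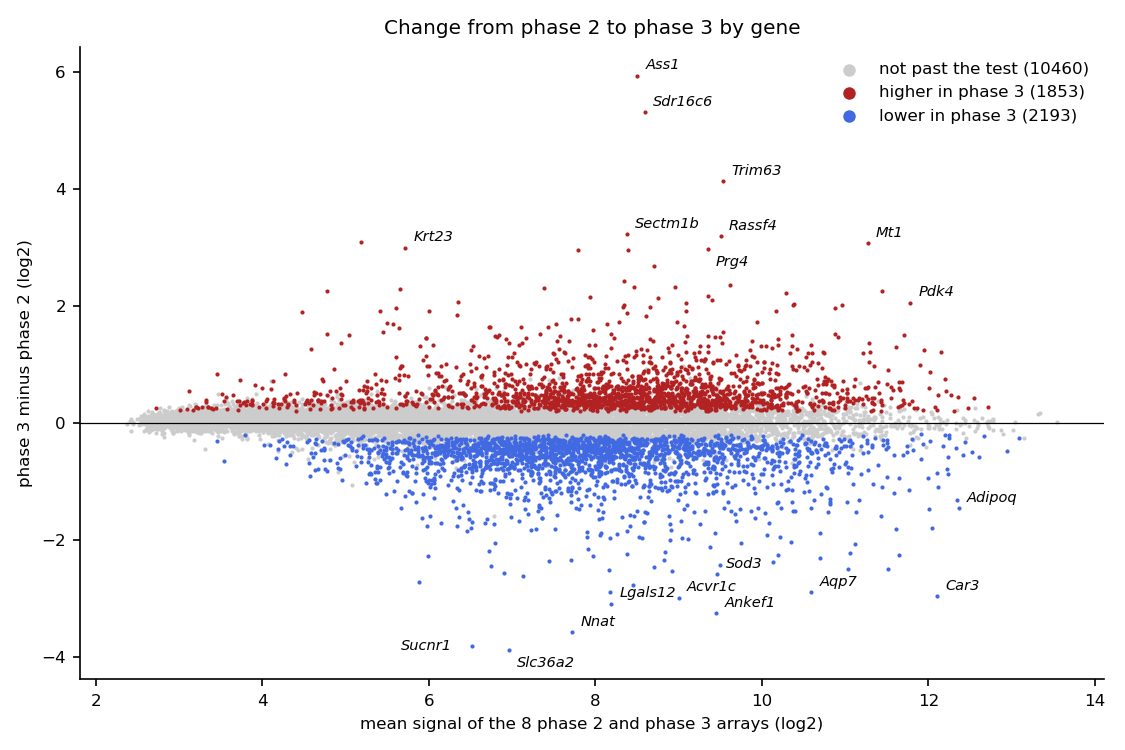
Change from phase 2 to phase 3 (vertical axis, log2) against the mean log2 signal of the 8 arrays (horizontal axis) for the 14506 genes. Points are genes, coloured where the adjusted p was under 0.05 (1853 higher, 2193 lower), and 19 of the genes described are labelled. Ass1, Sdr16c6 and Trim63 stand above all other genes.

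Genes that define adipocytes fell together. Of the 15 adipocyte markers measured, 13 fell, 1 rose and the median change was -1.71. Adipoq, the adipokine adiponectin, stood at 13.03, 13.07, 13.17 and 13.11 in phase 2 rats 1 to 4 and at 12.25, 11.58, 11.61 and 11.08 in phase 3 rats 1 to 4. The groups did not overlap, phase 3 rat 1 kept the highest of the phase 3 values, and the change was -1.46 ± 0.169 (adjusted p = 2.23e-05). Acvr1c, the activin receptor ALK7, which restrains lipolysis in adipocytes, held 10.52, 10.56, 10.42 and 10.49 in phase 2 and 8.67, 7.31, 7.32 and 6.73 in phase 3. All phase 2 values lay above all phase 3 values, with rat 1 again the highest in phase 3, for a change of -2.99 ± 0.284. Car3, the carbonic anhydrase typical of fat and muscle, held 13.58, 13.61, 13.58 and 13.55 in phase 2 and 12.17, 10.39, 10.79 and 9.12 in phase 3, the lowest in rat 4. Plin1, the perilipin that coats the lipid droplet, changed by -1.52 ± 0.312, and Cidec, which enlarges droplets, by -1.81 ± 0.146. The exception among the markers was Slc2a4, the insulin-regulated glucose transporter GLUT4, which rose by 0.48 ± 0.155; its call ended without phase 2 rat 1, 2 or 4 or without phase 3 rat 1 or 4 (adjusted p up to 0.102). The mean signal of the 15 markers lay between 11.25 and 11.35 in phase 2 and was 10.30, 9.63, 9.63 and 9.45 in phase 3 rats 1 to 4. In whole tissue, fewer adipocytes and less of these RNAs per adipocyte cannot be told apart, and the same holds for each cell type below.

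Markers of other cells moved less evenly. Of 16 fibroblast and progenitor markers 11 fell and 1 rose (median -0.77): Pi16 (-1.77), Cd248 (-1.55) and Fbln2 (-1.48) fell, and Dcn, the proteoglycan decorin, rose (0.28). The call of Dcn ended without phase 2 rat 2, 3 or 4, without phase 3 rat 2 or 4, with the replicate block or without phase 3 rats 2 and 3 together (adjusted p up to 0.129). Of 16 endothelial markers 1 rose, Pecam1 by 0.39 ± 0.0696, and 2 fell, Eng by -1.04 ± 0.115 and Plvap by -0.55 ± 0.155. The call of Plvap ended without phase 2 rat 1 or without phase 3 rat 4 (adjusted p up to 0.0542). Macrophage markers went both ways, 5 of 21 higher and 3 lower. Lgals3 (galectin-3), Cd68, Mertk, Gpnmb and Cd163, which are linked to engulfing cells and to lipid handling, rose by 1.20, 1.08, 0.75, 0.68 and 0.40, while Adgre1 (a surface receptor of mature macrophages), Cd14 and Aif1 fell by 1.0, 0.45 and 0.51 on the log2 scale. Without phase 3 rat 2, 6 macrophage markers fell. Cd163 and Aif1 were at the edge of the test: the call of Cd163 ended without phase 2 rat 1, 2 or 3, without phase 3 rat 2 or without phase 3 rats 2 and 3 together (adjusted p up to 0.152), and that of Aif1 without phase 2 rat 1, 3 or 4, without phase 3 rat 1, 3 or 4, with only the 8 fasted arrays, with centred arrays or with quantile normalisation (adjusted p up to 0.0906). The 6 T and NK cell markers that passed, of 21, were all lower, among them Cd3g (-1.02) and Lck (-0.54), and on centred arrays 1 was higher and 5 lower. Among 9 nerve markers 5 fell: S100b (-1.68), which adipocytes also express, Mbp (-0.92), Pmp22 (-0.89), Ncam1 (-0.31) and Mal (-0.56), the last with a call that ended without phase 2 rat 1, 3 or 4, without phase 3 rat 1, 3 or 4 or without phase 3 rats 2 and 3 together (adjusted p up to 0.0929). Of the markers of neighbouring tissues, 1 of 13 muscle markers rose (Tnnc2, 0.37, a call that ended without phase 3 rats 2 and 3 together, adjusted p up to 0.0594) and 3 fell (Tnnt3, Myl1 and Pygm), or 2 and 3 on centred arrays. Of 15 epididymis and testis markers 1 passed (Prm2, 0.55), and 2 did on centred arrays.

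The labelled tissue was checked against the markers of liver, since the extraction protocol in the labels names liver. Defining adipocyte genes were bright on every array, with Adipoq at 13.13 to 13.18 in the fed rats. Of 15 hepatocyte markers 2 rose and 2 fell, or 5 and 2 on centred arrays. Alb, albumin, held 9.73, 8.27, 10.78 and 9.71 in phase 2 and 8.34, 7.37, 5.20 and 6.02 in phase 3, spreading over more than 2 log2 units within each group and overlapping by phase 3 rat 1 and phase 2 rat 2; its change was -2.89 ± 0.598 (adjusted p = 0.00234). Hpx, the haem-binding protein hemopexin, moved the other way, from 5.05, 5.63, 5.36 and 5.61 to 7.0, 5.65, 9.01 and 7.40 (1.85 ± 0.475). Erythroid genes fell in 5 of 7 (Alas2, the first enzyme of haem synthesis in red cells, -2.15 ± 0.328). Their mean signal was lowest in phase 3 rat 3 (7.15, against 8.0, 8.22 and 8.14 in rats 1, 2 and 4), and the part of residual blood in the results below was not tested.

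The 12 largest rises without overlap of the groups were led by Ass1, argininosuccinate synthase, the enzyme of the urea and arginine cycle that joins citrulline to aspartate. Ass1 gave 5.34, 5.62, 5.81 and 5.34 in phase 2 rats 1 to 4 and 11.21, 12.27, 10.74 and 11.67 in phase 3 rats 1 to 4. Phase 2 signals lay close to the dim gauge and to the fed values (4.87 to 5.32), and each phase 3 rat was more than 4 log2 units above them. The change was 5.94 ± 0.244 (95% interval 5.42 to 6.47, adjusted p = 3.37e-09). Sdr16c6, a short-chain dehydrogenase, went from 4.90, 6.50, 7.94 and 4.40 to 11.13, 11.48, 11.43 and 10.98; the phase 2 rats differed widely among themselves and the phase 3 rats hardly (5.32 ± 0.539). Trim63, the ubiquitin ligase MuRF1, gave 7.06, 7.92, 7.52 and 7.35 in phase 2 and 11.95, 11.32, 11.52 and 11.63 in phase 3. The groups lay far apart, and the fed rats lay lower still (5.03 to 5.28), so that Trim63 climbed in each step, by 2.31 ± 0.163 and then by 4.14 ± 0.163, a 17.7-fold change in the second (adjusted p = 2.48e-09).

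Metallothioneins, small proteins that bind zinc and copper and are induced by metals and by glucocorticoids, also stood among the rises. Mt1 gave 9.22, 9.99, 9.81 and 9.90 in phase 2 and 11.93, 13.12, 13.02 and 13.17 in phase 3. Rat 1 was the lowest of the phase 3 rats by over 1 log2 unit, yet lay above every phase 2 value, and the change was 3.08 ± 0.249 (adjusted p = 1.08e-06). Mt2A followed with 9.79, 10.39, 10.32 and 10.77 in phase 2 and 11.55, 12.81, 12.97 and 12.92 in phase 3 (2.25 ± 0.271), again with rat 1 the lowest of phase 3. The transcripts of metallothionein genes are short and alike, and signal shared between their probe sets was not tested. Of the 26 metallothioneins and metal transporters, 8 rose and 4 fell, the latter being the transporters Slc39a13 (-0.50), Slc39a8 (-0.86), Slc39a10 (-0.47) and Atp7a (-0.42). The call of Atp7a ended without phase 2 rat 1 or 2, without phase 3 rat 3 or 4, with centred arrays or without phase 3 rats 2 and 3 together (adjusted p up to 0.124).

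Trim63, Mt1 and Mt2A rose and are known targets of glucocorticoid, FOXO or metal-sensing factors, although Mt2A was not among the largest rises listed here. The windows before the starts of these genes are shown as examples that hold matches to the letters sought. They run 5′ to 3′ from 250 bases before to 50 after the RefSeq start in the GRCr8 assembly. In the Trim63 window (chr5:151816986-151817285, plus strand) capitals mark a match to the inner core of the glucocorticoid response element, ACANNNTGT, and a match to the FOXO motif GTAAACA, read on the opposite strand. In the Mt1 window (chr19:10832926-10833225, minus strand) and the Mt2A window (chr19:10838659-10838958, minus strand) capitals mark matches to the core of the metal response element, TGCGCNC or TGCACNC, on either strand.
Trim63: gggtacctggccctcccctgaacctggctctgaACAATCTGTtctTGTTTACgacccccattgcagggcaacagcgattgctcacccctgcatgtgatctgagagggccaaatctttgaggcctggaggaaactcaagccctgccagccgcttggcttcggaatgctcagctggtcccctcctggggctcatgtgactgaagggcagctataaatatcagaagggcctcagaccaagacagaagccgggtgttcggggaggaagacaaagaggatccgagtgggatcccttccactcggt
Mt1: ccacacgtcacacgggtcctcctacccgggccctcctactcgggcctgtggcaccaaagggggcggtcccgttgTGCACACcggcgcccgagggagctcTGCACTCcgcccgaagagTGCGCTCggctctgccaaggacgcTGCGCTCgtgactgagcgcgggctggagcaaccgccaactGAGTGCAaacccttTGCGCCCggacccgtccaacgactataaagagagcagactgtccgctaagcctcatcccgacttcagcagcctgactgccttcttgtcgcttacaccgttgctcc
Mt2A: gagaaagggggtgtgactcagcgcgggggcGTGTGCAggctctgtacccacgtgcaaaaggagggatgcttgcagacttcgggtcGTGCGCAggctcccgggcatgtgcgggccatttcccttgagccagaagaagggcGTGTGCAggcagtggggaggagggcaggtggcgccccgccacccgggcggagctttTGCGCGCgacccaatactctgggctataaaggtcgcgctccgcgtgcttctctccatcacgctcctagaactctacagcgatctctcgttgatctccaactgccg
The Mt1 window held 6 matches to the metal response core and the Mt2A window 4. Over the 11951 tested genes with a window, 31.6% held at least 1 such match on either strand, 5.14% held the receptor core and 2.86% the FOXO letters. Among windows of genes that rose the shares were 35.5%, 3.94% and 3.18%, and among those that fell 35.3%, 3.99% and 2.08%. The receptor core was in 1 of 23 windows of the glucocorticoid-induced genes. The FOXO letters were in 1 of 19 windows of the ubiquitin ligases and FOXO-linked genes. The metal response core was in 11 of 19 windows of the metallothioneins and metal transporters. A match describes letters and is not a bound site.

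**Figure D2:**
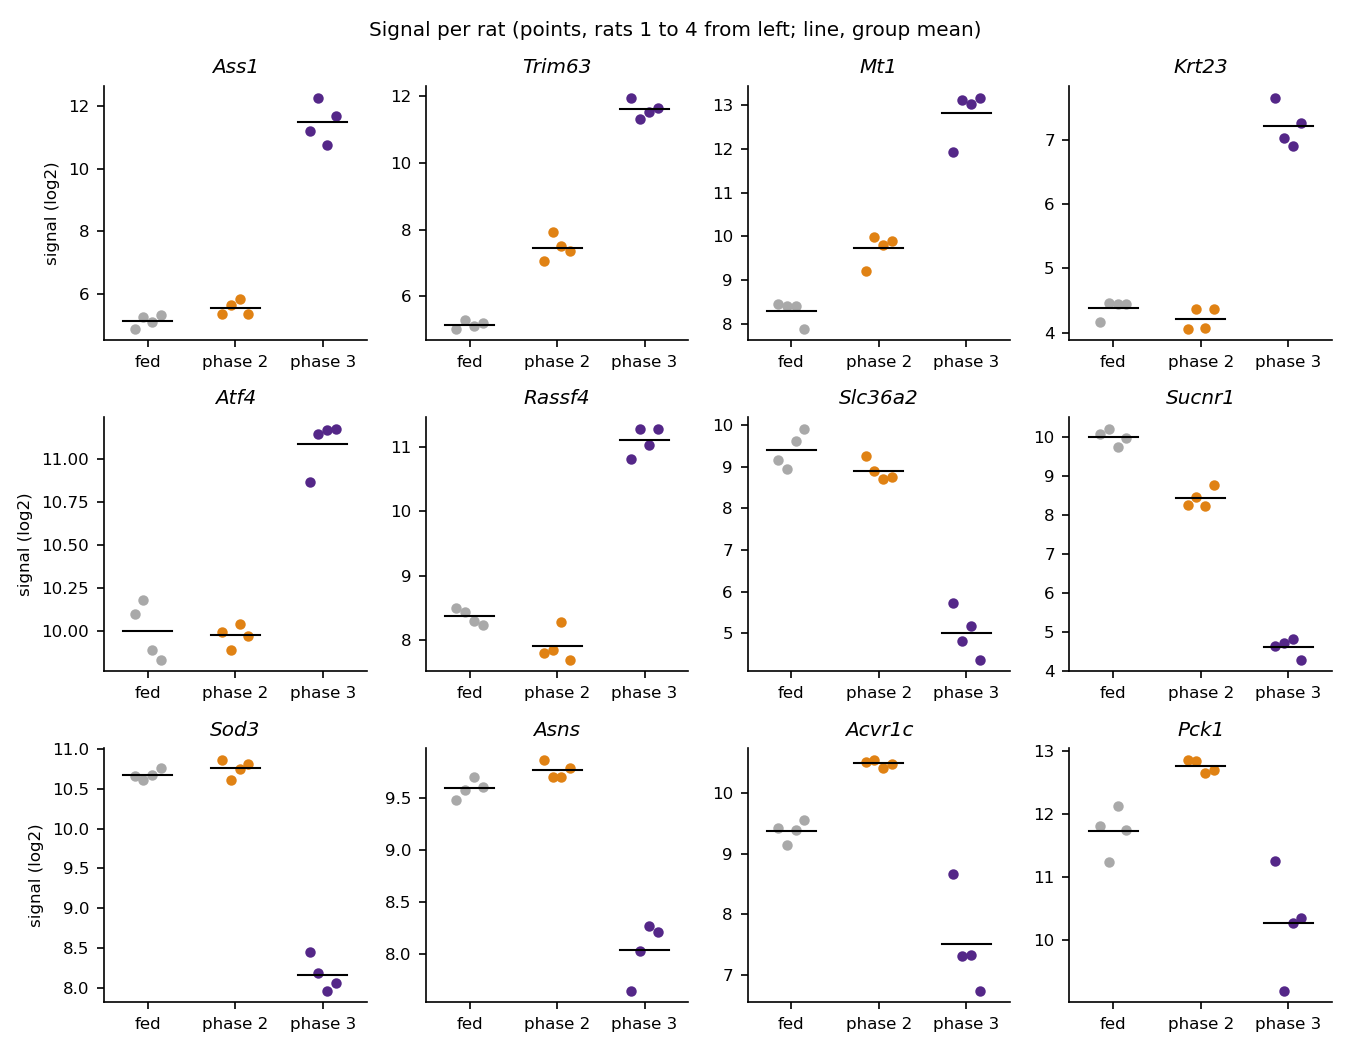
Log2 signal in each of the 12 rats (fed, phase 2, phase 3; 4 points per group, horizontal line at the group mean) for 12 genes named in the text. Ass1, Trim63 and Mt1 stand highest in phase 3, Slc36a2, Sucnr1 and Sod3 lowest, and Pck1 and Acvr1c rise in phase 2 before they fall.

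The other large rises came from several kinds of gene. Krt23, a keratin, lay within the dim range in fed rats and in phase 2 (4.06 to 4.37) and at 6.91 to 7.66 in phase 3. Prg4, the lubricating proteoglycan lubricin, rose by 2.97 ± 0.295 and lay at 7.44 to 8.50 in phase 2 and 10.08 to 11.78 in phase 3. Sectm1b (3.23 ± 0.233) had been level at 6.72 to 6.79 in phase 2. Cyp2j3 and Cyp2j4, related cytochromes P450 that oxidise polyunsaturated fatty acids, rose by 2.96 ± 0.392 and 2.96 ± 0.235, and as near copies their probe sets may share signal. Ifi27l2b, of an interferon-induced family, rose by 2.68 ± 0.266. Ifit1, another interferon-induced gene, is in this set only through unequal rats: it held 4.02, 9.59, 6.22 and 7.09 in phase 3 against 3.53, 3.60, 3.82 and 3.56 in phase 2, and the fed rats gave 3.53, 3.72, 3.60 and 7.05, rat 4 alone standing high. Its change of 3.10 ± 0.949 passed at an adjusted p of 0.0246, and the call ended without phase 2 rat 1, 2 or 4, without phase 3 rat 2 or 4, with a trended and robust variance or without phase 3 rats 2 and 3 together (adjusted p up to 0.166).

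Among the 12 largest falls were adipocyte genes that take up, store or sense metabolites. Slc36a2, a proton-coupled transporter of small amino acids that marks fat cells, gave 9.25, 8.91, 8.70 and 8.76 in phase 2 and 5.72, 4.81, 5.18 and 4.36 in phase 3. Every phase 3 rat lay more than 2 log2 units below every phase 2 rat, and the phase 3 group reached the dim range (-3.89 ± 0.258, adjusted p = 2.10e-07). Sucnr1, the succinate receptor that damps lipolysis, gave 8.25, 8.46, 8.23 and 8.76 in phase 2 and 4.64, 4.71, 4.81 and 4.28 in phase 3, which is within the dim range, after a first change of -1.57 between fed and phase 2 (-3.81 ± 0.141 in the second step). Nnat, neuronatin, lay at 11.63 to 11.96 in fed rats, 8.72 to 10.29 in phase 2 and 5.35 to 6.43 in phase 3. Sod3, the secreted superoxide dismutase, gave 10.87, 10.61, 10.75 and 10.81 in phase 2, level with the fed rats at 10.61 to 10.77, and 8.45, 8.19, 7.96 and 8.06 in phase 3; both groups were tight and 6.04-fold apart (-2.59 ± 0.102, adjusted p = 2.48e-09). Aqp7, the channel through which glycerol leaves the adipocyte, fell by 2.89 ± 0.28, and G0s2, the inhibitor of Pnpla2, by 2.77 ± 0.135. Lgals12, a galectin of the lipid droplet, lay at 9.64 to 9.80 in phase 2 and 5.78 to 7.96 in phase 3. Ankef1 lay at 10.76 to 11.31 and 6.87 to 9.10, and rat 1 was the highest of phase 3 for both genes. Sult1b1, a sulfotransferase, and Igsf10 fell by 2.72 ± 0.408 and 2.62 ± 0.179.

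More ubiquitin ligases and autophagy genes of the atrophy programme rose than fell. Of 24 ubiquitin ligases and FOXO-linked genes, 14 passed, each of them higher (median change 0.42). Beside Trim63, Fbxo32 gave 8.68, 8.21, 8.72 and 8.28 in phase 2 and 9.71, 9.74, 9.48 and 9.84 in phase 3, with no overlap (1.22 ± 0.12, adjusted p = 5.62e-06). Fbxo30, the ligase MUSA1, rose by 1.17 ± 0.0765, Sesn1, a stress-induced brake on mTORC1, by 1.09 ± 0.107, and Foxo3 itself by 1.1 ± 0.125. Of 27 autophagy genes 13 rose and 2 fell, or 19 and 1 on centred arrays. Atg13, of the kinase complex that starts autophagy, went from 8.60, 8.76, 8.74 and 8.91 to 10.36, 9.78, 10.56 and 10.55, with rat 2 the lowest of phase 3 (1.56 ± 0.148). Its partner kinase Ulk1 rose by 0.70 ± 0.0829, and the membrane-conjugated Gabarapl1 and Map1lc3b by 1.03 ± 0.0988 and 0.72 ± 0.078. The autophagy genes that fell were Fundc1 (-0.46) and Ulk2 (-0.37), the latter with a call that ended without phase 2 rat 1, 2 or 4, without phase 3 rat 3 or 4, with only the 8 fasted arrays, with centred arrays or without phase 3 rats 2 and 3 together (adjusted p up to 0.155).

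Proteasome subunits showed a smaller shift in the opposite direction to their first step. Of 35 subunits 14 rose and 1 fell, with a median change of 0.22 after one of -0.30 between fed and phase 2; after centring the arrays the counts were 22 and 1. Psma6, of the core ring, rose by 0.90 ± 0.105, Psmc6, an ATPase of the cap, by 0.67 ± 0.101, and Psmd8, of the cap's lid, by 0.77 ± 0.0979. Psma6 and Psmd8 have further probe sets on the array, and with all of a gene's probe sets averaged their changes were 0.78 and 0.42. The subunit that fell was Psme2 (-0.64 ± 0.0821), of the interferon-induced activator of the proteasome. Lysosomal genes went both ways, 3 of 30 higher and 9 lower, or 5 and 7 on centred arrays. Those that fell included Manba (-0.83) and Ctsc (-0.57), and those that rose were the FOXO-linked cathepsin Ctsl (1.24 ± 0.099), the proton pump subunit Atp6v1h (0.71 ± 0.0971) and Neu1 (0.34). The call of Neu1 ended without phase 2 rat 1, without phase 3 rat 4 or without phase 3 rats 2 and 3 together (adjusted p up to 0.0965).

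Enzymes of amino acid breakdown changed in both directions, 11 of 36 higher and 8 lower, and the urea-cycle steps were among the rises. Asl, argininosuccinate lyase, which acts next after Ass1, gave 7.91, 7.99, 8.14 and 7.92 in phase 2 and 9.19, 9.58, 9.38 and 9.46 in phase 3. The groups were tight and apart, and the phase 2 rats lay with the fed rats (7.92 to 8.03); the change was 1.41 ± 0.0907 (adjusted p = 1.56e-07). Arg2, the mitochondrial arginase that splits arginine to urea and ornithine, lay in the dim range in phase 2 (4.35, 4.48, 4.57 and 4.58) and at 6.75, 7.13, 6.59 and 6.74 in phase 3 (2.30 ± 0.115). Asns, asparagine synthetase, moved down, from 9.87, 9.70, 9.70 and 9.79 to 7.64, 8.02, 8.27 and 8.21 (-1.73 ± 0.118). Amino acid transporters likewise went both ways (9 of 28 higher, 7 lower): Slc7a2, a carrier of arginine and lysine, and Slc7a8, a carrier of neutral amino acids, rose by 1.08 ± 0.0926 and 0.99 ± 0.104, and Slc1a5, the glutamine carrier ASCT2, fell by 2.12 ± 0.118.

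The messenger of the stress factor Atf4 and the genes it is known to control did not move as 1 group. Atf4 gave 9.99, 9.89, 10.04 and 9.97 in phase 2 and 10.87, 11.15, 11.17 and 11.18 in phase 3, with rat 1 the lowest of phase 3 but well above phase 2 (1.12 ± 0.0979, adjusted p = 1.97e-06). Of the 24 genes of this list, which counts Atf4 itself among its rises, 11 rose and 7 fell. Ppp1r15a (GADD34), which restores translation after stress, rose by 1.52 ± 0.131. The serine-making enzymes fell instead: Psat1 gave 11.39, 11.26, 11.49 and 11.14 in phase 2 and 9.62, 8.38, 9.42 and 8.36 in phase 3 (-2.38 ± 0.235), Phgdh fell by 1.47 ± 0.205 and Psph by 1.32 ± 0.142. Of 22 serine and one-carbon enzymes 4 rose and 7 fell, the rises being Ahcy (1.06 ± 0.139), which clears S-adenosylhomocysteine, Mthfd2 (0.92), Mat2a (0.46) and Chdh (0.36). The call of Chdh ended without phase 2 rat 1, without phase 3 rat 3 or without phase 3 rats 2 and 3 together (adjusted p up to 0.0617), and that of Mat2a without phase 3 rats 2 and 3 together (adjusted p up to 0.0593).

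The enzymes that load amino acids onto transfer RNAs moved in 1 direction. Of 20 synthetases and their scaffold proteins 12 passed, each higher, with a median change of 0.31 after -0.33 in the first step. The mean signal of the list lay at 9.09 to 9.20 in fed rats, 8.74 to 8.87 in phase 2 and 9.03 to 9.23 in phase 3. The rise thus brought the list back to about its fed level. By the rule given further on, 8 of them moved only in this step. That rule bounds the first step and does not ask that a gene was still in it. Tars1, for threonine, gave 8.01, 8.06, 8.14 and 8.21 in phase 2 and 8.59, 8.86, 8.88 and 8.87 in phase 3, rat 1 being the lowest of phase 3 (0.69 ± 0.0966). Rars1, for arginine, rose by 0.64 ± 0.0919, and the scaffold proteins Aimp1 and Aimp2 by 0.85 ± 0.0777 and 0.71 ± 0.0976. The promoter windows of Tars1 (chr2:62114753-62115052, minus strand) and Cars1 (chr1:208225320-208225619, minus strand) are shown as members of this group that hold the ATF4 composite letters TGATGNAA, in capitals, both read here on the opposite strand. Cars1, for cysteine, rose by 0.53 ± 0.123.
Tars1: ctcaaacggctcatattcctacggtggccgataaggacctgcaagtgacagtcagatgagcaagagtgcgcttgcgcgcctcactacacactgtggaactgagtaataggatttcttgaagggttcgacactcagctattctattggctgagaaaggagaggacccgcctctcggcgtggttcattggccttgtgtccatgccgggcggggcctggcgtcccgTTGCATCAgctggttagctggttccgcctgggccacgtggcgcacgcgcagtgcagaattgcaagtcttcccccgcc
Cars1: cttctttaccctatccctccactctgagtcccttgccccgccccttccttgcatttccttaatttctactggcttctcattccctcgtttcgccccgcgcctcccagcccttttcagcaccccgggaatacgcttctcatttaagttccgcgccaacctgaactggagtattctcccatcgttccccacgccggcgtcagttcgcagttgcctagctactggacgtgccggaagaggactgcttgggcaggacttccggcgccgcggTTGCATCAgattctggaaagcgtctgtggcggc
These letters were in 7 of the 19 synthetase windows and in 2.98% of all 11951 windows. Among windows of genes that rose the share was 2.54%, and among those that fell 2.08%, both below that of all windows. They were in 5 of 22 windows of the ATF4 target list.

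**Figure D3:**
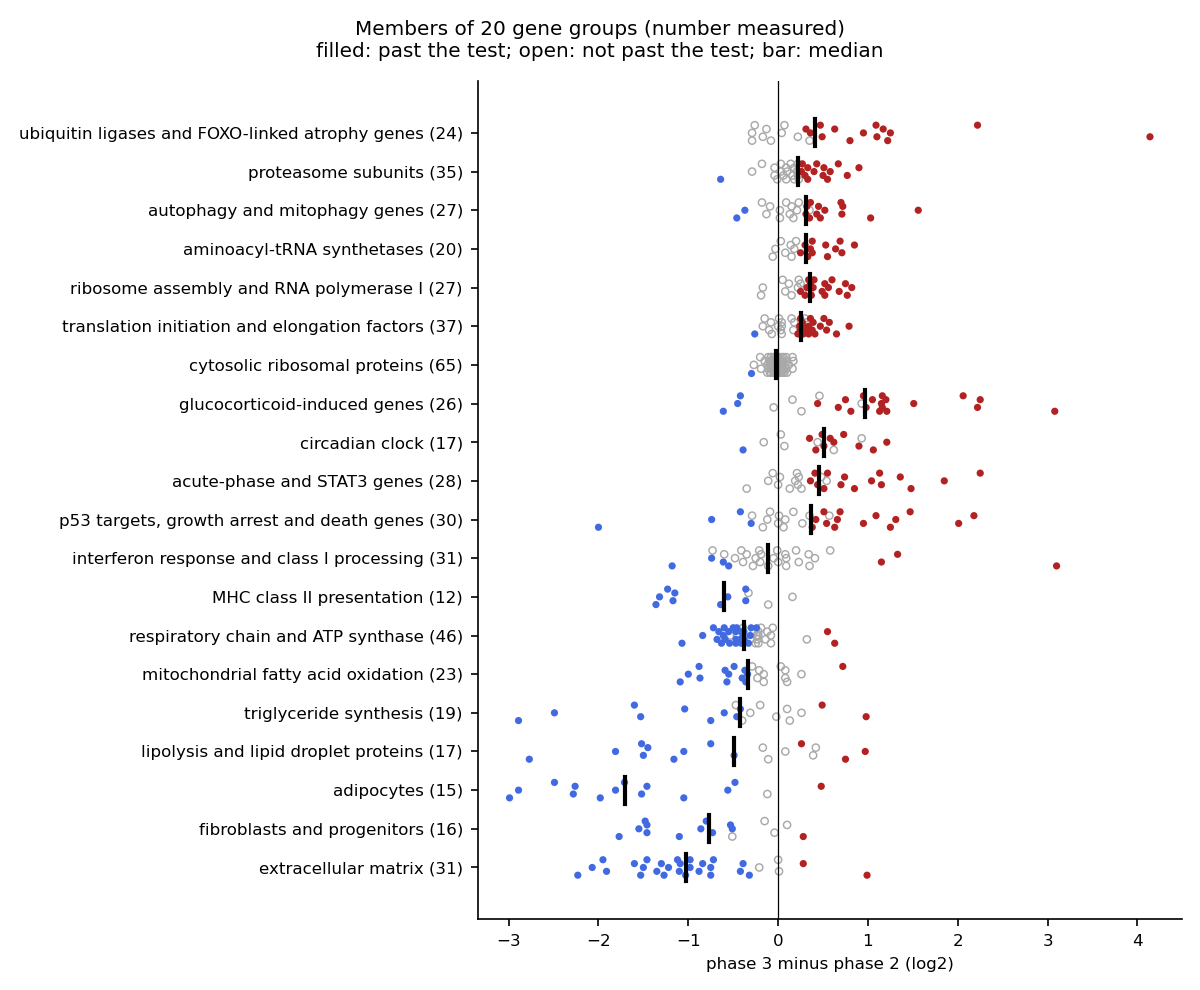
Change from phase 2 to phase 3 (log2) of every measured member of 20 gene groups. Each point is a gene, filled where the adjusted p was under 0.05, and the vertical bar is the group's median. Synthetases, ribosome assembly and glucocorticoid-induced genes lie mostly above 0, and matrix, adipocyte and respiratory chain genes mostly below.

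Other parts of the protein-making apparatus moved upward as well, apart from the ribosome itself. Of 27 genes for ribosome assembly and RNA polymerase I, 17 passed, each higher (median 0.35): Nop14 rose by 0.68 ± 0.0759, Gar1 by 0.75 ± 0.131, Ddx21 by 0.60 ± 0.0825 and the nucleolar Gnl3 by 0.82 ± 0.0966. Gnl3 changed by 0.51 when its probe sets were averaged. Of 37 translation factors 20 rose, such as Eif4h (0.79 ± 0.0808) and Eif3a (0.57 ± 0.0787), and Eef2, the elongation factor, fell (-0.26). On centred arrays 25 rose and 0 fell. Without phase 2 rat 1 the count of rises was 13, and the call of Eef2 ended with centred arrays, with quantile normalisation or without phase 3 rats 2 and 3 together (adjusted p up to 0.079). Of 65 cytosolic ribosomal proteins 1 passed, Rpl29, lower by a small step (-0.30 ± 0.0673), and the median was -0.02. On centred arrays 1 was higher and 1 lower. In the secretory pathway the signal recognition particle subunits Srp72 and Srp68 rose by 0.52 ± 0.078 and 0.47 ± 0.0726, while the oligosaccharide transferase subunits Rpn1 and Rpn2 fell by 0.41 ± 0.0686 and 0.55 ± 0.0792; in all, 6 of 40 genes for entry and transport rose and 12 fell, or 9 and 6 on centred arrays. Among 19 chaperones of the endoplasmic reticulum Calr (-0.72 ± 0.0731), Pdia6 (-0.68 ± 0.114), Pdia4 (-0.58 ± 0.105), Ppib (-0.40) and P4hb (-0.26) fell, and the stress-induced Dnajb9 rose by 1.17 ± 0.112; the counts were 1 higher and 5 lower, or 3 and 4 on centred arrays. The call of P4hb ended without phase 2 rat 1 or 4, without phase 3 rat 2, with only the 8 fasted arrays or with centred arrays (adjusted p up to 0.112).

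Among genes of triglyceride storage, and among those of its release, more fell than rose. Of 19 genes for triglyceride synthesis 9 fell and 2 rose, with a median of -0.42. Gpat3, which adds the first fatty acid to glycerol phosphate, lay at 9.62 to 9.76 in phase 2 and 7.91 to 8.31 in phase 3 (-1.60 ± 0.114). Dgat1, which adds the last, lay at 9.77 to 10.07 and 8.04 to 8.92 (-1.53 ± 0.152). The rises were Gk, glycerol kinase (0.98 ± 0.154), and Lpin3 (0.49). Of 17 genes for lipolysis and the lipid droplet 9 fell and 3 rose. Lipe gave 11.63, 11.57, 11.57 and 11.68 in phase 2 and 11.05, 10.22, 10.54 and 10.45 in phase 3. Rat 1 was the highest of phase 3 and the groups did not overlap (-1.05 ± 0.132, adjusted p = 4.53e-05). Pnpla2 gave 12.80, 12.74, 12.77 and 12.78 in phase 2 and 12.56, 12.26, 12.10 and 12.18 in phase 3, a smaller fall of 0.49 ± 0.0897 that left 1 rat above, 1 within and 2 below the fed range (12.21 to 12.27). Ces1d, a carboxylesterase that hydrolyses triglyceride, fell by 1.45 ± 0.144 and Fitm2, which helps to form droplets, by 1.5 ± 0.156. The droplet genes that rose were Plin2, the coat protein found in many cell types (0.75 ± 0.103), the monoglyceride lipase Abhd6 (0.97) and Faf2 (0.26), whose call ended without phase 2 rat 4, without phase 3 rat 4 or without phase 3 rats 2 and 3 together (adjusted p up to 0.0739). The adipocyte markers fell in the same rats by a median of -1.71, and their part in these falls was not tested.

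Genes for the uptake, activation and oxidation of fatty acids were more often lower than higher. Of 19 genes for uptake and binding 8 fell and 2 rose, and acyl-CoA synthetases divided between them. Acsl1, the main one of adipocytes, gave 12.91, 12.93, 13.0 and 12.88 in phase 2 and 11.67, 11.04, 11.13 and 10.73 in phase 3 (-1.79 ± 0.144), while Acsl4, which prefers arachidonic acid, gave 9.13, 9.32, 9.23 and 9.18 and 11.35, 11.29, 10.95 and 10.92 (1.91 ± 0.107). No value overlapped in either gene, and rat 1 stayed nearest to phase 2 for Acsl1 but not for Acsl4. Acsl3 rose by 0.65 ± 0.106 and Dbi, the acyl-CoA-binding protein, fell by 1.20 ± 0.178. Lpl, the lipase that frees fatty acids from lipoproteins, fell by 0.25 ± 0.0777 (adjusted p = 0.0286), and that call ended without phase 2 rat 1, 2 or 3, without phase 3 rat 2, 3 or 4, with only the 8 fasted arrays, with centred arrays, with quantile normalisation or without phase 3 rats 2 and 3 together (adjusted p up to 0.435). Of 23 genes of mitochondrial fatty acid oxidation 12 fell and 1 rose (median -0.34), with Acaa2 (-1.09 ± 0.133) and Decr1 (-0.87 ± 0.145) among the falls. Cpt1a, the gate of oxidation in most tissues, lay at 8.71 to 8.96 in phase 2 and 8.80 to 9.14 in phase 3 and did not pass (change 0.10 ± 0.103, 95% interval -0.12 to 0.33). Cpt1b, its muscle form, was the rise (0.72 ± 0.212, adjusted p = 0.0204), with overlapping rats (7.32, 7.48, 8.07 and 7.25 in phase 2, 8.83, 7.66, 8.26 and 8.25 in phase 3) and a call that ended without phase 2 rat 1 or 4, without phase 3 rat 1 or with only the 8 fasted arrays (adjusted p up to 0.0645).

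Fatty acid synthesis had already dropped in the first step and divided in the second (4 of 19 higher, 7 lower). Fasn, fatty acid synthase, stood at 12.55 to 12.86 in fed rats, 8.78, 7.97, 7.89 and 8.13 in phase 2 and 7.18, 7.05, 7.32 and 7.43 in phase 3. The second step was much the smaller of the 2, -0.95 ± 0.162 after -4.48 ± 0.162. Acacb, the acetyl-CoA carboxylase whose product restrains fatty acid oxidation, kept climbing (3.04, then 1.05 ± 0.17), and the desaturases Scd2 and Scd and the citrate lyase Acly rose by 1.17 ± 0.243, 0.63 and 0.47 after falls in phase 2. The call of Scd ended in 15 of the 21 alternatives (adjusted p up to 0.263), leaving out any fed rat among them, and that of Acly without phase 2 rat 2 (adjusted p up to 0.0513). In the peroxisome, Cat (catalase) and the transporter Abcd2 fell by 1.38 ± 0.117 and 1.54 ± 0.154 among 6 falls of 19 genes, and the rises were Phyh (0.60 ± 0.1) and the ketone body enzyme Bdh1 (0.81 ± 0.129). Of 20 sterol genes 5 rose and 1 fell, or 8 and 0 on centred arrays. Insig1, the sterol sensor of the endoplasmic reticulum, rose by 0.88 ± 0.0893 and Fdps by 0.49 ± 0.105, and Insig2, Sqle and Lss by 0.52, 0.27 and 0.44. The call of Insig2 ended without phase 2 rat 1 or 2, without phase 3 rat 1 or with only the 8 fasted arrays (adjusted p up to 0.0734), that of Sqle without phase 2 rat 1, 2 or 4, without phase 3 rat 2, 3 or 4, with only the 8 fasted arrays or without phase 3 rats 2 and 3 together (adjusted p up to 0.236) and that of Lss without phase 2 rat 2, 3 or 4, without phase 3 rat 1, 2 or 4, without fed rat 1 or 2, with the replicate block or without phase 3 rats 2 and 3 together (adjusted p up to 0.121), and 2 or 3 sterol genes rose without phase 2 rat 1, 2 or 4 or phase 3 rat 2 or 4.

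Genes of glucose use and mitochondrial energy supply were more often lower than higher, and Pdk4 was among the rises. Pdk4, the kinase that shuts pyruvate dehydrogenase, gave 10.57, 11.14, 10.51 and 10.81 in phase 2 and 12.91, 12.71, 12.77 and 12.85 in phase 3. Both groups were tight and the gene had already climbed from 7.38 to 8.28 in fed rats; the second step was 2.06 ± 0.173 (4.16-fold, adjusted p = 1.47e-06). Ldha (lactate dehydrogenase), Pfkm (phosphofructokinase) and Pc (pyruvate carboxylase) fell by 1.05 ± 0.0865, 0.74 ± 0.0883 and 1.89 ± 0.171. Of 35 genes of glycolysis and pyruvate use 5 rose and 12 fell, or 8 and 10 on centred arrays; besides Pdk4 and Slc2a4, whose unsteady call is given above, the rises were the glucose transporter Slc2a1 (0.94), Aldoc (0.78) and Pdhx (0.72). Of 17 citric acid cycle genes 9 fell and 0 rose, or 8 and 1 on centred arrays, among the falls Idh1 (-0.94 ± 0.137), Mdh2 (-0.50 ± 0.0834) and Cs (-0.67 ± 0.109), citrate synthase, for which the mean of its probe sets gave -0.38. The respiratory chain had 26 of 46 genes lower, with a median of -0.38, led by the complex I subunits Ndufb10 (-0.72 ± 0.0963), Ndufs8 (-0.66 ± 0.0883) and Ndufb5 (-0.68 ± 0.095), and 2 higher, Ndufa5 (0.55, a call that ended without phase 3 rats 2 and 3 together, adjusted p up to 0.0655) and Cox5a (0.63). Mitochondrial ribosomal proteins were mixed: 10 of 41 fell, Mrps7 the most clearly (-1.05 ± 0.0754), and 4 rose, or 6 each way on centred arrays.

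Genes induced by glucocorticoids moved upward as a group. Of 26 genes 18 rose and 3 fell, with a median change of 0.97. Beside Mt1, Mt2A and Pdk4, Cebpd gave 7.42, 7.74, 7.41 and 7.61 in phase 2 and 8.37, 8.87, 8.76 and 8.79 in phase 3, without overlap (1.15 ± 0.111). Fkbp5, a co-chaperone of the glucocorticoid receptor, gave 9.65, 9.67, 8.99 and 10.13 and 11.17, 11.18, 10.92 and 11.20; phase 2 rats differed by more than 1 log2 unit and phase 3 rats by less than 0.3 (1.51 ± 0.333). Tsc22d3 (GILZ), Klf15 and Ddit4, which restrains mTORC1, rose by 1.20 ± 0.27, 1.16 ± 0.153 and 2.22 ± 0.296. Hsd11b1, the enzyme that regenerates active glucocorticoid inside the cell, rose by 1.16 ± 0.152. The genes of this list that fell were the receptor itself, Nr3c1 (-0.42 ± 0.089), Anxa1 (-0.61) and the lipoprotein lipase inhibitor Angptl4 (-0.45 ± 0.145), which had risen in phase 2. The call of Angptl4 ended without phase 2 rat 2, 3 or 4, without phase 3 rat 2 or 3, with centred arrays or without phase 3 rats 2 and 3 together (adjusted p up to 0.299).

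Insulin, growth factor and cAMP signalling genes changed in part together. Igf1, the growth factor, went from 12.48, 12.36, 12.16 and 12.34 to 11.12, 11.39, 11.21 and 11.04 (-1.15 ± 0.0911, adjusted p = 1.0e-06), and Igfbp3, which binds it in the blood, from 9.60 to 10.06 in phase 2 to 11.58 to 12.10 in phase 3 (1.97 ± 0.161). The values of the groups lay apart in both genes and the directions were opposite. Igfbp4 fell by 1.17 ± 0.0821 and the kinase Akt2 by 1.0 ± 0.0968. In all, 9 of 26 insulin and IGF genes rose and 9 fell; the rises numbered 5 without phase 2 rat 2 or 4 and 4 without phase 3 rat 4. Of 35 receptors and cAMP enzymes that set lipolysis 16 fell and 1 rose (Npy1r, 1.03), or 15 and 4 on centred arrays. Both stimulating and restraining members fell: Adrb3, the beta-3 adrenergic receptor, by 1.98 ± 0.27, the protein kinase A subunit Prkar2b by 2.04 ± 0.157, the inhibitory G protein Gnai1 by 1.06 ± 0.0826 and Hcar2, the restraining receptor for ketone bodies, by 1.61 ± 0.143.

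Several adipokines fell, while the adipogenic factors went both ways (median change 0.02). Lep, leptin, had dropped from 11.07 to 11.48 in fed rats to 7.28, 6.68, 6.39 and 8.16 in phase 2 and stood at 4.28, 4.78, 5.33 and 4.98 in phase 3, at or near the dim range in all 4 rats (-2.28 ± 0.308, adjusted p = 8.18e-05). Cfd, adipsin, gave 12.75, 12.62, 12.93 and 12.80 in phase 2 and 11.29, 10.61, 10.56 and 9.60 in phase 3 (-2.26 ± 0.243). Rbp4, the retinol carrier, and Retn, resistin, fell by 2.35 ± 0.168 and 1.71 ± 0.257. Of 23 secreted factors 9 fell and 4 rose: Nampt, the enzyme of NAD salvage, by 1.21 ± 0.0942, Lcn2 by 1.13, Metrnl by 0.38 and Apoe by 0.43. The call of Lcn2 ended without phase 2 rat 3 or 4, without phase 3 rat 3 or 4, with only the 8 fasted arrays, with a trended and robust variance or without phase 3 rats 2 and 3 together (adjusted p up to 0.118), and that of Metrnl without phase 3 rats 2 and 3 together (adjusted p up to 0.0508). Among 28 adipogenic factors and imprinted growth genes, 9 rose and 11 fell. Pparg and Cebpa, the central factors of the adipocyte, fell by 0.56 ± 0.121 and 1.17 ± 0.15, the imprinted Mest by 2.05 ± 0.215, and the nuclear receptor Nr4a3 rose by 2.42 ± 0.253. Of 17 clock genes 10 rose and 1 fell (Clock, -0.39, a call that ended without phase 3 rats 2 and 3 together, adjusted p up to 0.0575); the rises included the repressors Nr1d1 (1.21 ± 0.178) and Nr1d2 (0.90 ± 0.113) and the output factor Tef (0.73 ± 0.0856), and numbered 6 without phase 3 rat 4. The hour at which each rat was killed is not given in the sources used here.

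Matrix genes fell nearly throughout. Of 31 collagens, crosslinking enzymes and other matrix genes 26 fell, with a median of -1.03, against -0.45 in the first step. Col3a1, a fibrillar collagen, gave 12.40, 11.89, 12.19 and 12.23 in phase 2 and 9.98, 10.46, 9.44 and 9.89 in phase 3 (-2.23 ± 0.167). Fbn1, fibrillin, which also gives the hormone asprosin, gave 11.38, 11.02, 10.94 and 11.40 in phase 2 and 9.33, 9.28, 9.10 and 9.24 in phase 3 (-1.95 ± 0.111, adjusted p = 6.23e-08). Both stood apart without overlap, and the phase 3 rats differed by at most 0.3 log2 units for Fbn1. Col1a1 and Col1a2 fell by 2.07 ± 0.202 and 1.60 ± 0.174, the crosslinking enzyme Loxl2 by 1.91 ± 0.135 and the collagen chaperone Serpinh1 by 1.35 ± 0.0829. The 2 that rose were Thbs1 (0.99) and Dcn, whose unsteady call is given above. Angiogenic factors had 11 of 24 lower, such as Vegfb (-1.0 ± 0.137) and Fgf1 (-1.20 ± 0.139), and 3 higher (Tgfb2, Thbs1 and Pgf, the last with a call that ended without phase 2 rat 2 or 3, without phase 3 rat 3 or 4 or with only the 8 fasted arrays, adjusted p up to 0.0804). On centred arrays 7 were lower and 4 higher.

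More growth arrest genes rose than fell, and the D cyclins fell. Ccnd1 gave 8.37, 7.86, 8.22 and 8.21 in phase 2 and 6.45, 6.95, 6.41 and 6.37 in phase 3 (-1.62 ± 0.131), and Ccnd2 fell by 1.18 ± 0.13. Of 30 p53 targets and arrest genes 14 rose and 4 fell, or 18 and 2 on centred arrays. Tp53inp1, which acts in p53 signalling and autophagy, gave 9.30, 9.66, 9.18 and 9.36 in phase 2 and 11.34, 11.51, 11.13 and 11.54 in phase 3 (2.01 ± 0.117). Gadd45b and Ccng1 rose by 2.18 ± 0.127 and 1.47 ± 0.121. The falls were Phlda3 (-2.0 ± 0.133), an inhibitor of Akt, Cdkn2c (-0.74), Bcl2 (-0.42) and Bak1 (-0.30), and without phase 2 rat 2 only 2 fell. The call of Bcl2 ended without phase 2 rat 1 or 2, without phase 3 rat 2 or 3, with centred arrays, with quantile normalisation or without phase 3 rats 2 and 3 together (adjusted p up to 0.271), and that of Bak1 without phase 2 rat 2 or 3, without phase 3 rat 1, with only the 8 fasted arrays, with centred arrays or with quantile normalisation (adjusted p up to 0.0885). Of 43 cell cycle genes 7 fell and 4 rose, the rises being Mcm7 (1.48 ± 0.119) of the replicative helicase, Pcna (0.95 ± 0.173), Cdt1 (0.47, a call that ended without phase 3 rats 2 and 3 together, adjusted p up to 0.0854) and Ccne2 (0.54). The falls numbered 11 without fed rat 2 and 16 when only the 8 fasted arrays were fitted, and the rises 7 without phase 3 rat 1. Polyamine turnover had Sat1 higher by 1.31 ± 0.138 and Sat2 by 0.66 ± 0.0989.

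Acute-phase genes that passed rose, and inflammatory mediators went both ways. Of 28 acute-phase and STAT3-linked genes 15 passed, each higher (median 0.46). Orm1, the acute-phase protein orosomucoid, lay in the dim range in phase 2 (3.57, 3.53, 3.89 and 3.62) and at 5.16, 5.98, 6.51 and 5.96 in phase 3 (2.25 ± 0.201). Hp, haptoglobin, gave 5.76, 5.99, 6.37 and 6.08 and 7.51, 7.80, 7.45 and 7.35 (1.48 ± 0.133), and Fosl2 rose by 1.36 ± 0.115. Both Orm1 and Hp lay apart in every rat. Of 31 inflammatory mediators 8 rose, Rela, a subunit of NF-kappa-B, by 0.44 ± 0.0799, and 4 fell: the monocyte receptor Ccr2 (-2.37 ± 0.223), the chemokine Cxcl12 (-1.35 ± 0.201), the adhesion molecule Vcam1 (-1.20 ± 0.185) and Cxcl9 (-1.27). MHC class II genes fell in 9 of 12, with a median of -0.60. Cd74, the invariant chain, gave 11.66, 11.23, 11.54 and 11.58 in phase 2 and 10.04, 10.52, 9.90 and 10.10 in phase 3 (-1.36 ± 0.142), RT1-Da fell by 1.32 ± 0.134 and RT1-Ba by 1.17 ± 0.152, and in all 3 genes rat 2 was the highest of phase 3. Among neutrophil genes S100a8 (1.89 ± 0.419), S100a9 (0.63) and Mmp8 (0.40) rose, while Mpo (-2.45 ± 0.265) and the receptor Cxcr2 (-1.80 ± 0.227) fell. S100a8 ranged from 4.14 to 6.89 over the phase 3 rats. The mean signal of the neutrophil list lay near the dim gauge of 5.13, at 5.04 to 5.33 in phase 2 and 5.01 to 5.19 in phase 3.

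Interferon-induced genes were set apart by 1 animal. Mx1, an antiviral GTPase, gave 4.95, 9.37, 4.86 and 5.19 in phase 3 rats 1 to 4 and 5.73, 5.80, 5.83 and 6.68 in phase 2. Its relative Mx2 gave 5.38, 10.71, 5.94 and 6.19 in phase 3 and 7.38, 8.12, 7.08 and 8.57 in phase 2, and Slfn4, of the interferon-induced Schlafen family, 6.43, 10.09, 5.95 and 6.26 and 7.12, 7.73, 7.26 and 8.31. For each of these 3 genes phase 3 rat 2 lay above all phase 2 rats and the other phase 3 rats below them. The changes of 0.08 ± 0.781, -0.73 ± 0.865 and -0.42 ± 0.685 did not pass (adjusted p = 0.953, 0.583 and 0.702). Without phase 3 rat 2 they were -1.01, -1.95 and -1.39 (adjusted p = 0.0406, 0.00134 and 0.00231), which turned the direction of Mx1. Over the 31 interferon and class I genes the mean signal was 7.12, 8.87, 7.37 and 7.56 in phase 3 rats 1 to 4, and 7.47 to 8.07 in phase 2. Of these genes 3 rose (Ifit1, Ifit3 at 1.33 and Oasl at 1.15) and 4 fell, the immunoproteasome subunits Psmb8 (-0.61 ± 0.141), Psmb9 (-0.74 ± 0.19) and Psmb10 (-0.55 ± 0.146) and Rig1 (-1.18 ± 0.28). Without phase 3 rat 2 the count that fell was 15. The count that rose was 6 without phase 3 rat 1, 1 without phase 2 rat 1 and 0 in limma without phase 3 rat 4, where 4 had an unadjusted p under 0.05. The call of Ifit3 ended without phase 2 rat 1, without phase 3 rat 4 or without phase 3 rats 2 and 3 together (adjusted p up to 0.108), and that of Oasl without phase 3 rat 4 or without phase 3 rats 2 and 3 together (adjusted p up to 0.151). Irf4, a factor of immune cells and adipocytes that fasting induces in fat, ran the other way in the same animal, at 10.99, 6.10, 10.67 and 10.37 in phase 3 against 8.94, 9.43, 7.52 and 8.37 in phase 2 (change 0.97 ± 0.808, adjusted p = 0.419). Without phase 3 rat 2 its change was 2.11 (adjusted p = 0.000312).

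**Figure D4:**
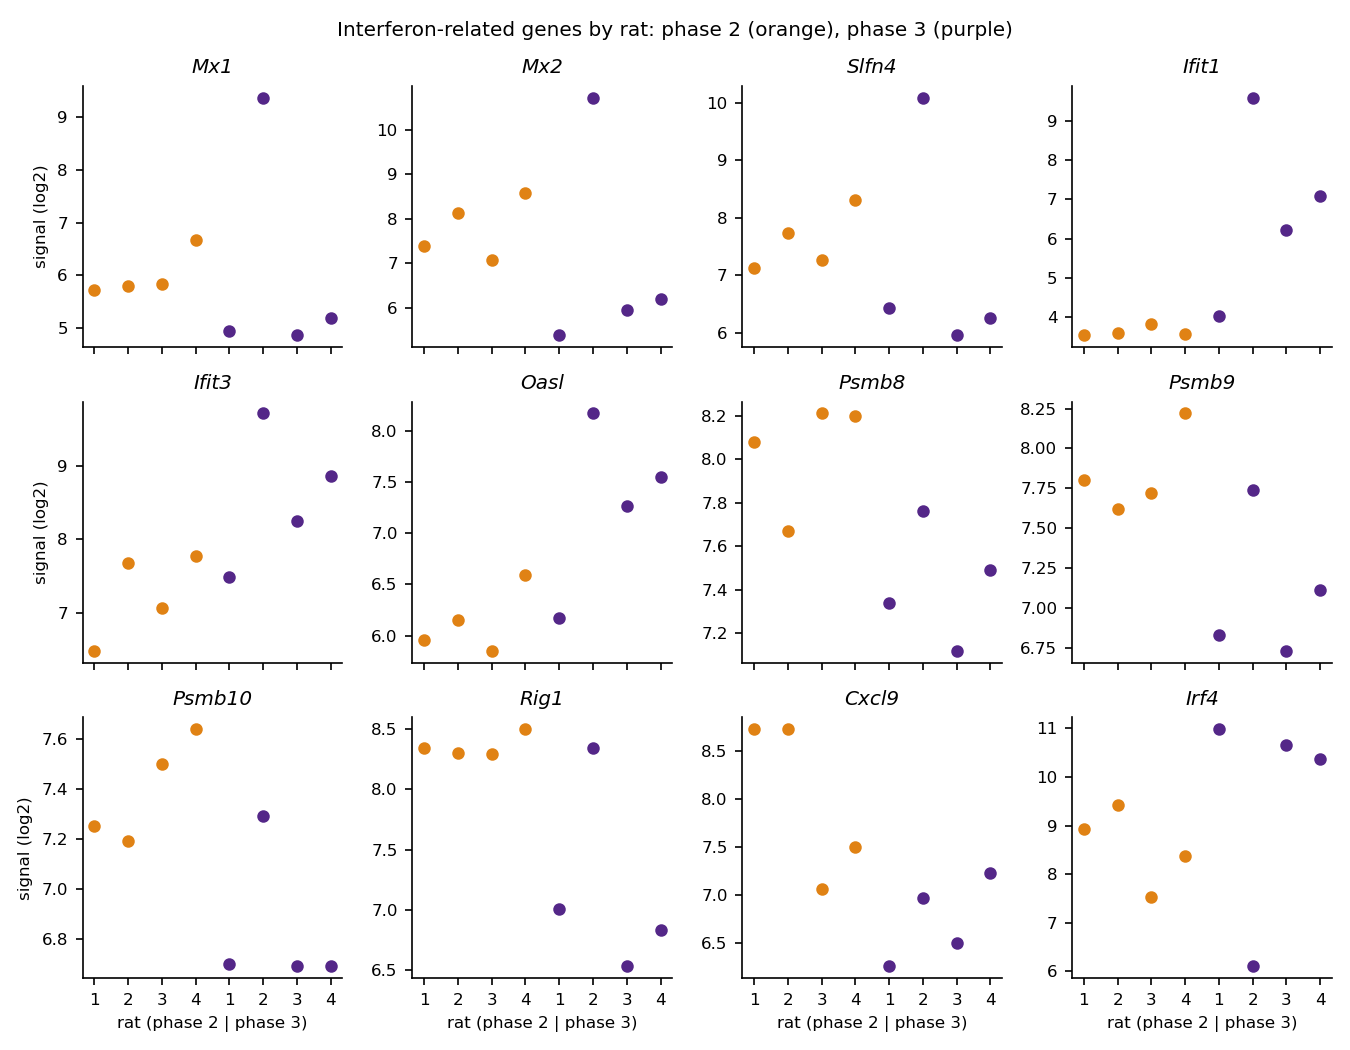
Log2 signal of 12 interferon-related genes in the 4 phase 2 and 4 phase 3 rats, 1 panel per gene, with the rat's number within its group on the horizontal axis. Phase 3 rat 2 stands above the other phase 3 rats for Mx1, Mx2 and Slfn4 and below them for Irf4.

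Detoxification genes went both ways. Gstm1, a glutathione transferase, had fallen in phase 2 and went from 9.26, 9.22, 9.31 and 9.68 to 11.13, 11.51, 11.31 and 11.63 (2.03 ± 0.143). Prdx3, the mitochondrial peroxiredoxin, fell by 0.83 ± 0.0911, beside Sod3 and Cat. Of 39 genes 11 rose and 12 fell, or 18 and 9 on centred arrays, and 7 rose without phase 3 rat 4. Of 19 complement genes 6 fell and 1 rose, or 2 and 4 on centred arrays; C6, of the membrane attack complex, was the rise (1.19 ± 0.162), and Cfp, properdin, the clearest fall (-0.84 ± 0.139). Without phase 2 rat 1, or phase 3 rat 3 or 4, 3 complement genes fell. Of 13 thermogenic genes 2 rose (Gk and Cpt1b) and 2 fell (Ucp2, -0.64 ± 0.104, and Ebf2, -0.79 ± 0.133).

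Whether a gene moved in this step alone was tested within the same fit. A gene counted as such where it passed in phase 3 against phase 2, where its change differed from that between fed and phase 2 (a test passed by 12.6% of the genes), and where the 95% interval of the earlier change lay within a factor of 1.5 either way. The 2 steps share the phase 2 arrays, so an error in the phase 2 mean moves them in opposite directions. By this rule 425 genes moved upward and 312 downward in this step only, 5.08% of all genes, of which 63 and 68 did so by at least 2-fold. The interval condition alone was met by 11022 genes. It bounds the first step and does not ask that a gene was still in it. Farsa and Rcan2, which met the rule, changed by -0.38 each in the first step and by 0.33 and 0.28 in the second. Among the genes nearest the bound, Cilp, Farsa and Rcan2 lay just inside it (farther ends of the interval between 0.5821 and 0.5836, against a bound of 0.585) and B4galt1, Mrto4 and Tjp1 just outside (0.5876 to 0.5895). The calls of Farsa, Rcan2, B4galt1, Mrto4 and Tjp1 in phase 3 against phase 2 ended in 4, 13, 1, 1 and 13 of the 21 alternatives. The counts moved with single rats: upward genes numbered 227, 249 and 257 without phase 2 rats 1, 2 and 4, and downward genes 200 without fed rat 4 and 142, 202, 178 and 205 without phase 2 rats 1 to 4. With a narrower bound, of 25% upward or the same factor downward, they were 140 and 73.

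The upward genes of this kind with the largest changes were Krt23, Arg2, Orm1 and Sox4. Of the 425 upward genes, 18 had both their fed and their phase 2 mean below the dim gauge, as had 5 of the 312 downward genes, and for these the rule gives no reading of the first step. Krt23, Arg2, Orm1 and Mfsd2a were among the 18. Krt23 changed by -0.17 in the first step (interval -0.48 to 0.15) and by 3.0 in the second. Arg2 and Orm1 changed by -0.03 (interval -0.27 to 0.22) and 0.00 (interval -0.43 to 0.44) before their rises. Sox4, a transcription factor of progenitor and tumour cells, gave 7.63, 7.95, 8.04 and 7.98 in fed rats, 7.94, 8.11, 8.39 and 7.81 in phase 2 and 10.06, 10.19, 9.99 and 10.22 in phase 3. The fed and phase 2 rats overlapped and the phase 3 rats stood 4.14-fold above phase 2, with little spread (2.05 ± 0.125, adjusted p = 9.01e-08). Rad18, a ubiquitin ligase of DNA damage tolerance, gave 7.28, 7.31, 7.67 and 7.52 in phase 2 and 9.17, 9.35, 9.44 and 9.33 in phase 3 (1.88 ± 0.0956). Mfsd2a, which carries lysophospholipids, rose by 1.91 ± 0.217 and Tmod1, which caps actin filaments, by 1.77 ± 0.115, although their place among the genes of this step alone was lost in 4 and 9 of the alternatives. Zfand2a, a stress-induced partner of the proteasome, Rgs16, which shortens G protein signals, and Akr1c14, a steroid-reducing enzyme, rose by 1.73 ± 0.197, 1.69 ± 0.155 and 1.53 ± 0.143.

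The downward genes of this kind with the largest changes were Sod3, Psat1 and Cilp, followed by Asrgl1, Kcnn3 and Csad. Psat1 has a further probe set that changed by -1.37, and the mean of both gave -1.87, which is smaller than the changes of those 3. Sod3 had a first-step interval of -0.14 to 0.30 and Psat1 one of -0.57 to 0.44. Asrgl1, an asparaginase, gave 9.34, 9.43, 9.40 and 9.65 in fed rats, 9.51, 9.37, 9.55 and 9.56 in phase 2 and 7.62, 7.10, 7.27 and 7.02 in phase 3 (-2.25 ± 0.12). Csad, which makes the taurine precursor hypotaurine, fell by 2.06 ± 0.171, the potassium channel Kcnn3 by 2.20 ± 0.13 and Trarg1, which helps to sort GLUT4, by 1.89 ± 0.15. Tmem120a, a membrane protein of adipocytes, gave 9.41, 9.71, 9.43 and 9.65 in phase 2 and 7.91, 7.39, 7.48 and 7.54 in phase 3 (-1.97 ± 0.115). Dnase1l3, a secreted nuclease, fell by 1.95 ± 0.125, and Cilp, a matrix protein, by 2.28 ± 0.22. Cilp, Psat1 and Kcnn3 left the set in 11, 8 and 7 of those alternatives and Phlda3 and Csad in 4 and 2, while their falls in phase 3 against phase 2 passed in each of them.

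**Figure D5:**
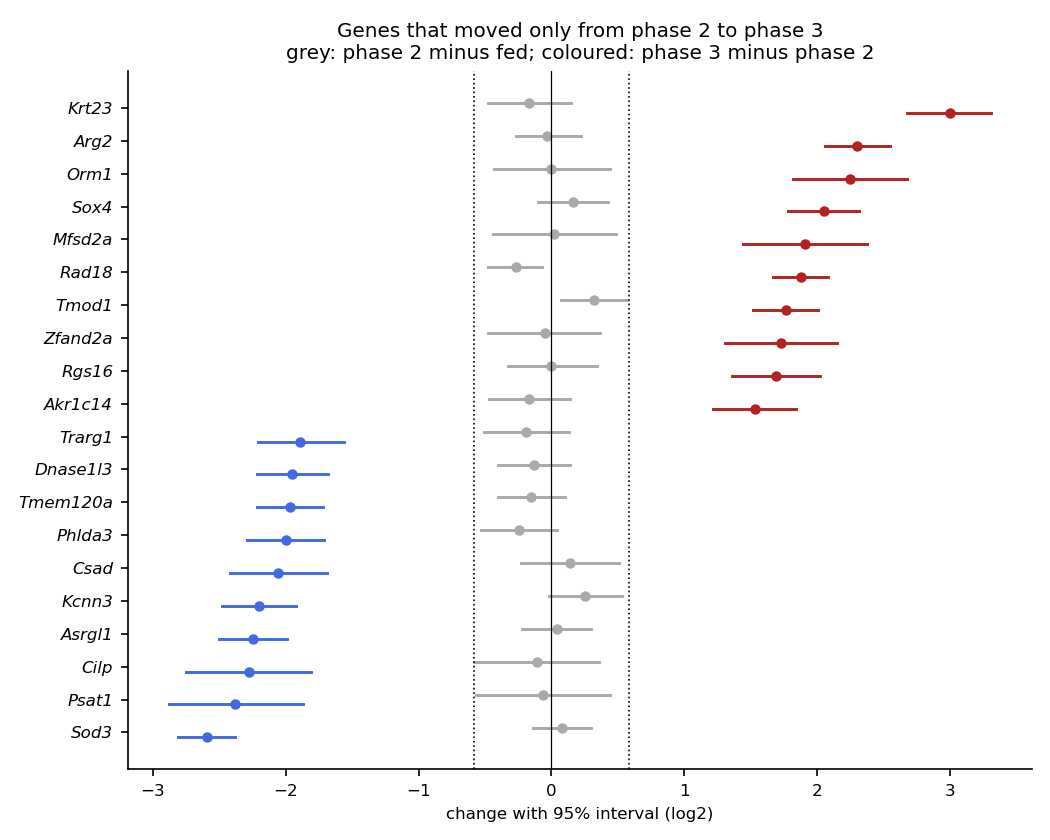
Change between fed and phase 2 (grey, with its 95% interval) and between phase 2 and phase 3 (coloured, with its 95% interval), in log2, for the genes with the largest changes among those that moved only in the second step. Dotted lines mark the bound of a factor of 1.5 that the first interval had to lie within. For Krt23, Arg2, Orm1 and Mfsd2a the fed and phase 2 means lay below the dim gauge.

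Some genes passed in both steps in opposite directions. Pck1, the enzyme that makes glycerol phosphate for fat storage from non-sugar precursors in adipocytes, gave 11.81, 11.24, 12.13 and 11.74 in fed rats, 12.86, 12.84, 12.65 and 12.70 in phase 2 and 11.25, 9.20, 10.28 and 10.35 in phase 3. All phase 2 rats lay above the fed rats, and in phase 3 rat 1 lay at the low end of the fed range and the others below it. The step down was -2.49 ± 0.309 after 1.03 ± 0.309 (adjusted p of the difference between steps = 0.000843). Acvr1c followed the same course, with 1.11 and then -2.99. Calml3, a calmodulin-like protein, went from 6.25 ± 0.124 (SD, n = 4) in fed rats to 10.2 ± 0.339 in phase 2 and 7.66 ± 0.855 in phase 3, so it kept part of its first rise. Rbp7, a retinol-binding protein of fat, fell by 2.49 ± 0.291 after a rise of 1.14. In the opposite order, Rassf4, of the Ras association family, gave 7.80, 7.85, 8.28 and 7.69 in phase 2 and 10.82, 11.28, 11.03 and 11.29 in phase 3, above the fed range of 8.23 to 8.50 (3.20 ± 0.134, adjusted p = 3.44e-09). Parm1, a membrane mucin-like protein, and Hoga1, which ends hydroxyproline breakdown, fell in phase 2 and returned: Parm1 held 9.15 to 9.70 in fed rats, 7.36 to 7.95 in phase 2 and 9.44 to 9.98 in phase 3 (1.99 ± 0.15), and Hoga1 8.47 to 8.75, 6.80 to 7.06 and 7.99 to 9.10 (1.77 ± 0.183).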

How the data were processed

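RNA of the epididymal fat of 12 rats (4 fed, 4 phase 2, 4 phase 3) was measured on 1 Affymetrix array each. The deposited values are log2 signals that the authors made by RMA (background correction, quantile normalisation and summary per probe set), and GCOS and Affymetrix Expression Console 1.1 were used as well, per the submitters' processing notes. The library version is not given in the sources used here.

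Of 29215 probe sets, 15310 carry 1 gene symbol in the platform annotation, 323 several and 13582 none. The brightest probe set over the 12 arrays stood for each of the 527 genes with more than 1, which left 14506 genes, of which 14481 matched RefSeq GRCr8 by Entrez number. One mean per group was fitted with lmFit and eBayes (limma 3.58.1, R 4.3.3), with Benjamini-Hochberg adjustment over all genes and a threshold of 0.05. The labels tie 1 array to 1 rat, so each p-value sets a difference between groups against the spread between rats. That spread was pooled over all 12 arrays, although it was wider in phase 3. Tables and figures were made with Python 3.11.15, pandas 2.3.3 and matplotlib 3.10.9. The code of the fit was run on simulated arrays with known changes in phase 3 only. Those arrays had equal spread in each group, no rat that stood apart and no change in the first step. They therefore cannot vouch for the calls where these data differ in those respects.

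Named genes were the 12 largest rises and falls without overlap, the 10 largest rises and falls of this step alone, the 4 largest in each direction among genes called in opposite directions in both steps, up to 4 genes of smallest adjusted p per list, the 5 of largest SD in each fasted group, and 12 genes always followed. A further 68 genes, such as Plin1, Foxo3, Slc2a4, Adrb3, Ifit3 and the members that ran against the rest of their list, were named after their values were seen. The 61 gene lists (45 of functions, 16 of cell types) and the comparison itself were chosen with earlier results of these data known, so their counts are a description. Alternatives were fits on the 8 fasted arrays, an intensity trend with a robust prior, no dim genes (the lowest 40%), arrays centred on their medians, quantile and cyclic loess normalisation, the mean of a gene's probe sets, the replicate number as a block, each rat left out, and other bounds on the first step.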

Additional observations from a re-analysis of the deposited data

Results flagged for a closer look

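Each group of 4 phase 2 or phase 3 rats was searched for a rat far from the other 3, over 728 groups made of the named genes and of the mean signals of the gene lists. A rat was taken to stand apart where its gap to the nearest other rat, divided by the group's whole range, was above Dixon's 95% critical value for 4 values, which chance passes in about 1 of 20 groups. It was passed in 35 groups, close to that share, with the rat in question phase 3 rat 2 in 9, phase 3 rat 1 in 7 and phase 2 rat 2 in 6. Some named genes had been chosen for a large spread within a group and others for groups that did not overlap. The chance share is therefore no fair standard for this count, and no conclusion is drawn from their closeness.

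Phase 3 rat 2 was above the other phase 3 rats for the interferon-induced genes Mx1 (9.37 against 4.86 to 5.19, ratio 0.927), Mx2 (10.71 against 5.38 to 6.19, ratio 0.848) and Slfn4 (10.09 against 5.95 to 6.43, ratio 0.884). It was also above them for the immunoproteasome subunit Psmb10 (7.29 against 6.69 to 6.70, ratio 0.974), the macrophage gene Aif1 (7.07 against 6.15 to 6.28, ratio 0.863), the cyclin Ccnd1 (6.95 against 6.37 to 6.45, ratio 0.864) and the mean of the complement genes (9.41 against 8.99 to 9.01, ratio 0.961). It was below them for Irf4 (6.10 against 10.37 to 10.99, ratio 0.874) and for the adipocyte transporter Slc7a10 (5.54 against 6.44 to 6.57, ratio 0.878).

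Phase 3 rat 1 was below the other phase 3 rats for the metallothioneins Mt1 (11.93 against 13.02 to 13.17, ratio 0.879) and Mt2A (11.55 against 12.81 to 12.97, ratio 0.886) and for the stress factor Atf4 (10.87 against 11.15 to 11.18, ratio 0.900). It was lowest as well for Dnajb9 (8.70 against 9.16 to 9.24, ratio 0.860), Ppib (10.52 against 10.74 to 10.75, ratio 0.934), Tars1 (8.59 against 8.86 to 8.88, ratio 0.926) and the mean of the cell cycle genes (5.85 against 6.0 to 6.02, ratio 0.867). Phase 3 rat 3 was low for Fkbp5 (10.92 against 11.17 to 11.20, ratio 0.884) and high for the mean of the skeletal muscle markers (5.65 against 5.37 to 5.41, ratio 0.872). Phase 3 rat 4 was low for Ndufb10 (7.79 against 8.02 to 8.06, ratio 0.842) and high for the mean of the antioxidant and detoxification genes (9.45 against 9.36 to 9.37, ratio 0.857).

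In phase 2, rat 2 was low for Cilp (8.54 against 9.24 to 9.35, ratio 0.869), Phlda3 (9.64 against 9.96 to 9.99, ratio 0.926), RT1-Da (11.59 against 11.90 to 11.91, ratio 0.981), Slc1a5 (10.17 against 10.49 to 10.55, ratio 0.843) and the lymphatic markers (7.91 against 8.08 to 8.09, ratio 0.914), and high for the mast cell protease Cpa3 (9.46 against 8.50 to 8.55, ratio 0.946). Rat 1 was low for Gar1 (7.07 against 7.56 to 7.66, ratio 0.833), Psmc6 (9.41 against 9.69 to 9.71, ratio 0.906) and the cytosolic ribosomal proteins (11.28 against 11.40 to 11.42, ratio 0.881). Rat 3 was high for Cdt1 (5.95 against 5.77 to 5.78, ratio 0.938), the fatty acid uptake genes (9.54 against 9.41 to 9.43, ratio 0.852) and the T and NK cell markers (5.81 against 5.64 to 5.65, ratio 0.903). Rat 4 was high for Mx1 (6.68 against 5.73 to 5.83, ratio 0.897) and for Slc7a10 (8.59 against 6.03 to 6.14, ratio 0.959), and low for the endothelial markers (9.44 against 9.59 to 9.61, ratio 0.877).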

How the results depend on the processing

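The counts of genes higher (1853) and lower (2193) in phase 3 stayed within 1.5 times under the alternatives run, except after centring. Centring each array on its median over the genes gave 3115 higher genes. These medians differed by a mean of -0.0901 (phase 3 minus phase 2, log2), so centring raised every change by the size of that difference. Over all probe sets the array medians overlapped, at 6.07 to 6.11 in phase 2 and 6.03 to 6.13 in phase 3. Why the medians over the genes differed was not tested. With 1 rat left out at a time the higher genes numbered 1432 to 1946, the lower genes 1872 to 2190 and the genes called between fed and phase 2 2850 to 4134. The genes that moved only in this step numbered 227 to 535 upward and 142 to 371 downward, and 140 and 73 with the narrower bound of 25%, which asks more of the same intervals. With only the 8 fasted arrays 1510 genes were higher and 1894 lower, and the rule for this step alone has no value there because it needs the fed rats. Of 295 named genes that passed, 253 did so in each of the 21 alternatives that tested them, and 42 failed in at least 1. Left out 1 at a time, the rats moved the change of Mx1 between -1.01 (without phase 3 rat 2) and 0.49. Leaving out phase 3 rats 2 and 3 together, chosen after their position was seen, gave 415 upward and 285 downward genes of this step alone.

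Replicate numbers in the titles gave no pairing: same-numbered phase 2 and phase 3 rats had correlations of their deviations from the group means of 0.188, -0.015, 0.033 and -0.155, and some rats correlated best with another number. With the number as a replicate block 1829 genes were higher and 2166 lower, and 371 and 305 moved in this step alone. With 4 rats a group, 1 array each and no detection call, precision is limited by the few arrays, and changes of genes near the dim range are compressed by background signal.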

Other observations

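Of 16 genes of NAD turnover 1 rose, Nampt, described above as a secreted factor, and 5 fell, or 3 and 3 on centred arrays. Without phase 2 rat 1 or phase 3 rat 2 or 4 the count that fell was 3, and without phase 2 rat 3 or phase 3 rat 1 or 3 the count that rose was 2. Nnmt, which methylates nicotinamide and so removes it from NAD salvage, gave 8.69, 9.01, 8.75 and 9.02 in phase 2 and 7.24, 7.87, 6.69 and 7.11 in phase 3 (-1.64 ± 0.186, adjusted p = 1.79e-05 in the limma fit). Nudt12, which splits NADH, fell by 1.51 ± 0.184 and Nmnat1, which completes NAD in the nucleus, by 0.48 ± 0.0914. Of 12 polyamine genes 5 rose and 1 fell, and 2 or 3 rose without phase 2 rat 1, 2 or 4 or phase 3 rat 2 or 4. Beside the acetyltransferases Sat1 and Sat2, Amd1, which supplies the propyl groups of spermidine, rose by 0.61 ± 0.186, a call that ended without phase 2 rat 1, 2 or 4, without phase 3 rat 4 or with only the 8 fasted arrays, adjusted p up to 0.0575, and Oaz2, an antizyme, fell by 0.55 ± 0.117 beside 1 other gene when phase 3 rat 3 was left out.

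Of 11 markers of the mesothelium, the sheet that covers the pad, 5 fell, Msln (mesothelin) by 1.05 ± 0.143, Bnc1 by 0.78 ± 0.119 and Gpm6a by 0.70 ± 0.15 among them, and 1 rose, Prg4, beside 1 other without fed rat 4, or 4 and 2 on centred arrays. Msln lay at 9.41 to 9.96 in phase 2 and 8.23 to 8.86 in phase 3. Of 13 smooth muscle and pericyte markers Notch3 fell by 0.97 ± 0.126 and Myocd rose by 0.64 ± 0.174, with 1 further fall without phase 2 rat 4. Of 8 B and plasma cell markers Cd22 fell by 0.83 ± 0.0855 and Ms4a1 by 0.51 ± 0.145, the latter with a call that ended without phase 2 rat 1 or 3 (adjusted p up to 0.0515). Of 11 mast cell markers Kit fell by 0.81 ± 0.125 and Cpa3 by 0.79 ± 0.245. The call of Cpa3 ended without phase 2 rat 2, without phase 3 rat 3 or 4 or with only the 8 fasted arrays (adjusted p up to 0.0784), and 4 mast cell markers fell without phase 3 rat 2.

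The widest spreads within phase 2 belonged to Sdr16c6 and Alb, described above, and to Slc7a10, Ephx2 and Olr1057. Slc7a10, a transporter of small amino acids that marks adipocytes, gave 6.11, 6.14, 6.03 and 8.59 in phase 2 rats 1 to 4 and 6.51, 5.54, 6.57 and 6.44 in phase 3 rats 1 to 4 (change -0.45 ± 0.448, adjusted p = 0.502 in the limma fit). Ephx2, which hydrolyses epoxides of fatty acids, gave 8.29, 8.85, 6.79 and 6.41 and 6.30, 5.11, 5.89 and 6.64, after 7.92, 5.94, 8.07 and 5.82 in fed rats 1 to 4 (change -1.60 ± 0.601, adjusted p = 0.0629). Olr1057, an olfactory receptor gene, gave 5.01, 6.76, 4.25 and 5.57 and 4.99, 6.39, 4.85 and 5.78.

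Of 13905 probe sets that carry no gene symbol or several, 654 were higher in phase 3 than in phase 2 and 768 lower, which is 10.2%, in a limma fit over all probe sets of the value table. In that fit 24.3% of the probe sets with a single symbol passed. Changes of at least 2-fold were held by 60 and 162 of the probe sets without a single symbol.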
